A study of Homo sapiens with 8 samples.

Results

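The miR-29 family was examined in small RNA libraries of 786O cells, a human clear cell renal cell carcinoma (ccRCC) line that lacks functional VHL. The members were the rows of the deposited count table named for miR-29a, miR-29b and miR-29c, either arm. They made up 7 of the 3112 mature miRNAs listed, of which 1482 were known and 1630 were predicted by the authors. All 7 members passed the filter on low counts, as did 895 miRNAs in all, 463 of them known. The 8 libraries comprised 4 from cells given a control plasmid (NC) and 4 from cells given a plasmid for an shRNA against circSOD2 (circSOD2-sh), a circular RNA made from exons of SOD2. Per the labels, both groups were transfected with a lipid reagent and total RNA was taken after 48 h, whereas the study's methods describe lentiviral knockdown with selection. Which shRNA was used, and whether replicates came from separate cultures, were not given in the sources used here, so that p-values measure the spread between these libraries, which may be technical. No other allele or agent is named in the labels for either group. circSOD2 is no miRNA, and its knockdown was not analysed here. The study sequenced these miRNAs to look for candidates bound by circSOD2, and here the question was how the levels, the isoform balance and the arm ratios of miR-29 compared between the groups.

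miRNAs are cut from hairpin precursors, and each hairpin can give a mature strand from its 5p and its 3p arm. The strand that is mostly loaded into Argonaute is called the guide and the other the passenger, and bases 2 to 8 of the loaded strand, the seed, pair with target mRNAs. The 3p arms are the guides of miR-29. The family is best known as a brake on extracellular matrix genes, among them collagens and elastin, which is studied in kidney fibrosis, and on the DNA methyltransferases DNMT3A and DNMT3B and the survival factor MCL1.

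The mature sequences of RefSeq (GRCh38.p14), which matched all 7 members by name, are shown because isoform balance depends on how far reads of the family can be told apart. Sequences run 5′ to 3′ and capitals mark the seed. The 3 guides carry the same seed.
hsa-miR-29a-3p: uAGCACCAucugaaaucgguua
hsa-miR-29b-3p: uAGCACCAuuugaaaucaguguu
hsa-miR-29c-3p: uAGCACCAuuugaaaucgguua
The 4 passenger arms each carry a seed of their own.
hsa-miR-29a-5p: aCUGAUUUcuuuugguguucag
hsa-miR-29b-1-5p: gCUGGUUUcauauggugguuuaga
hsa-miR-29b-2-5p: cUGGUUUCacaugguggcuuag
hsa-miR-29c-5p: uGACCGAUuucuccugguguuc

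The guide seed was shared by 3 known miRNAs of the table, the 3 guides themselves, and each passenger seed by 1. With positions counted from 1 at the 5′ end, miR-29a-3p and miR-29c-3p differ by a single substitution, C10U. miR-29a-3p and miR-29b-3p differ by C10U, G18A, U21G and A22U, and miR-29b-3p is 1 base longer. miR-29b-1-5p and miR-29b-2-5p differ by 2 substitutions once they are shifted by 1 base. How many mismatches the authors' counting allowed was not given in the sources used here. Counts of miR-29c-3p were 0.447% to 0.604% of those of miR-29a-3p over the 8 libraries, and whether reads of one guide were counted on the other was not tested.

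The family comes from 4 hairpins in 2 clusters, and miR-29b-3p is cut from 2 of them, so that its count sums both loci. Coordinates are those of GRCh38. MIR29A (chr7:130876747-130876810, minus strand) and MIR29B1 (chr7:130877459-130877539, minus strand) are 648 bases apart, and in GENCODE 29 both lie within the lincRNA gene AC016831.6 of the same strand. MIR29B1 also overlaps an exon of the lincRNA LINC-PINT (chr7:130876809-130882736, minus strand), which MIR29A overlaps only at its edge. Both hairpins also lie within the lincRNA gene LINC00513 of the plus strand. MIR29C (chr1:207801852-207801939, minus strand) and MIR29B2 (chr1:207802443-207802523, minus strand) are 503 bases apart, and both overlap an exon of their host lincRNA MIR29B2CHG. The RefSeq hairpins are shown with both mature arms in capitals, since the 5p arms are the only part of the miR-29b product that tells its 2 loci apart.
MIR29A: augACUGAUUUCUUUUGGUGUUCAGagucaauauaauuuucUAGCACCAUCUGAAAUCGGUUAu
MIR29B1: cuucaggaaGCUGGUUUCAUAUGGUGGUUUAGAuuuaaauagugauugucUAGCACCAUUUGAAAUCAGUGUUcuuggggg
MIR29B2: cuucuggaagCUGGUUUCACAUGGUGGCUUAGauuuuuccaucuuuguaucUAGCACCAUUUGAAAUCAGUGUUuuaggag
MIR29C: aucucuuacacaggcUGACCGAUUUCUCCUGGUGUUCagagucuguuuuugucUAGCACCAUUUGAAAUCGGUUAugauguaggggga

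The NC libraries held 6386872 to 9245044 counts and those of circSOD2-sh 3743860 to 4208276. Predicted miRNAs took 58.1% to 63.8% of the former and 3.54% to 4.93% of the latter, so that levels per total count cannot be set side by side without a choice of scale. Levels are therefore given as CPM, the counts scaled to a common library size, after TMM normalization (normalized CPM), and the other scales are given where they change a direction. A count of 3, taken as the limit of detection, was worth 0.460 to 0.674 normalized CPM. As a check of the label, the 3 markers listed for renal carcinoma were dominated by miR-21-5p, at 108230 to 154566 normalized CPM, whereas the hypoxia miRNA miR-210-3p was at only 13.9 to 27.0 and miR-155-5p at 8.84 to 15.9. The epithelial miR-200 markers, 5 of 5 in the table, had a sum of 5086 to 5828 normalized CPM in the NC group and of 4398 to 4868 in the circSOD2-sh group. The means in NC and circSOD2-sh were 4076 and 3433 for miR-200b-3p, 1015 and 822 for miR-200a-3p and 366 and 354 for miR-429. Those of miR-200c-3p (15.6 and 5.47) and miR-141-3p (11.9 and 2.29) were far lower, so that the sum says little about these members. The leukocyte markers, 4 of 4 in the table, had a sum of 1.19 to 17.1 in the former and 2.13 to 14.7 in the latter.

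A pair of libraries stood apart from the rest of their groups. In circSOD2-sh replicate 2 the 5 neural markers, all in the table and at 0 in no library, summed to 5231 normalized CPM, whereas the rest of its group lay at 472 to 491 and NC at 521 to 559. miR-124-3p, the defining neuronal miRNA, was at 3217 there and at 1.87 to 3.01 in replicates 1, 3 and 4. In NC replicate 4 the sum of the 4 smooth muscle and stroma markers was 557 normalized CPM and that of NC replicates 1 to 3 was 7.39 to 8.70. The same sum was raised in circSOD2-sh replicate 2, at 228 with 8.00 to 13.4 in the rest of that group. The 4 kidney tubule markers summed to 1065 in NC replicate 4, to 376 to 399 in NC replicates 1 to 3 and to 300.3 to 349 in circSOD2-sh. The erythroid sum was 171 in NC replicate 4 and 26.8 to 42.6 in the rest of NC. It was 59.9 in circSOD2-sh replicate 2 and 21.6 to 31.3 in the rest of that group. The muscle sum was 47.4 in NC replicate 4, 9.38 to 15.7 in the rest of NC and 10.7 to 30.4 in circSOD2-sh. The part of these libraries in the miR-29 results was not tested as a cause, and results are given below with and without them.

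The guide of miR-29a made up nearly all of the family. miR-29a-3p ranked 4 among the known miRNAs by counts in all 4 NC libraries and 6 to 7 in circSOD2-sh. miR-29b-3p ranked 66 to 71 in NC and 74 to 82 in circSOD2-sh, and miR-29c-3p 122 to 127 and 135 to 147. The passenger arms lay far lower, from 39.1 ± 4.95 normalized CPM (SD, n = 4, NC) for miR-29c-5p to 2.20 ± 0.758 for miR-29b-2-5p. Mature miRNAs differ little in length, but the efficiency of adapter ligation differs between sequences, and this order of levels is uncorrected for it.

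miR-29a-3p, the dominant guide, had 146940, 147796, 137629 and 99916 counts in NC replicates 1 to 4 and 103231, 109822, 88202 and 94228 in circSOD2-sh replicates 1 to 4. These are 22538, 22753, 23469 and 22456 normalized CPM in NC and 17546, 19390, 17699 and 16760 in circSOD2-sh. The groups did not overlap. The level was 22804 ± 461 in NC and 17849 ± 1107 in circSOD2-sh (SD, n = 4 each), and the log2 fold change was -0.35 with a standard error of 0.062 and a 95% interval of -0.49 to -0.21. By edgeR's quasi-likelihood test with Benjamini-Hochberg adjustment over all 895 miRNAs the adjusted p was 0.000696. The sign held only relative to the other miRNAs: with library totals as the scale the log2 fold change was 0.61, with upper-quartile scaling 0.49 and with limma on the deposited CPM 0.47, each with the median of all miRNAs tested moved to 0.96, 0.83 and 0.72 to 0.82. In RNA of whole cultures, a lower level per cell and fewer cells that express a miRNA cannot be told apart.

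miR-29a-3p was the 1 member of 7 that passed the test. Among all 895 miRNAs, 65.7% were called, 32.4% as lower and 33.3% as higher in circSOD2-sh. The groups of miR-29a-3p, again the only such member, did not overlap, against 60.3% of all miRNAs. The members share precursors and, in part, reads, and are not independent of each other. The median log2 fold change was -0.17 over the 7 members, -0.0021 over all miRNAs tested and -0.11 over the 463 known ones.

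**Figure D1:**
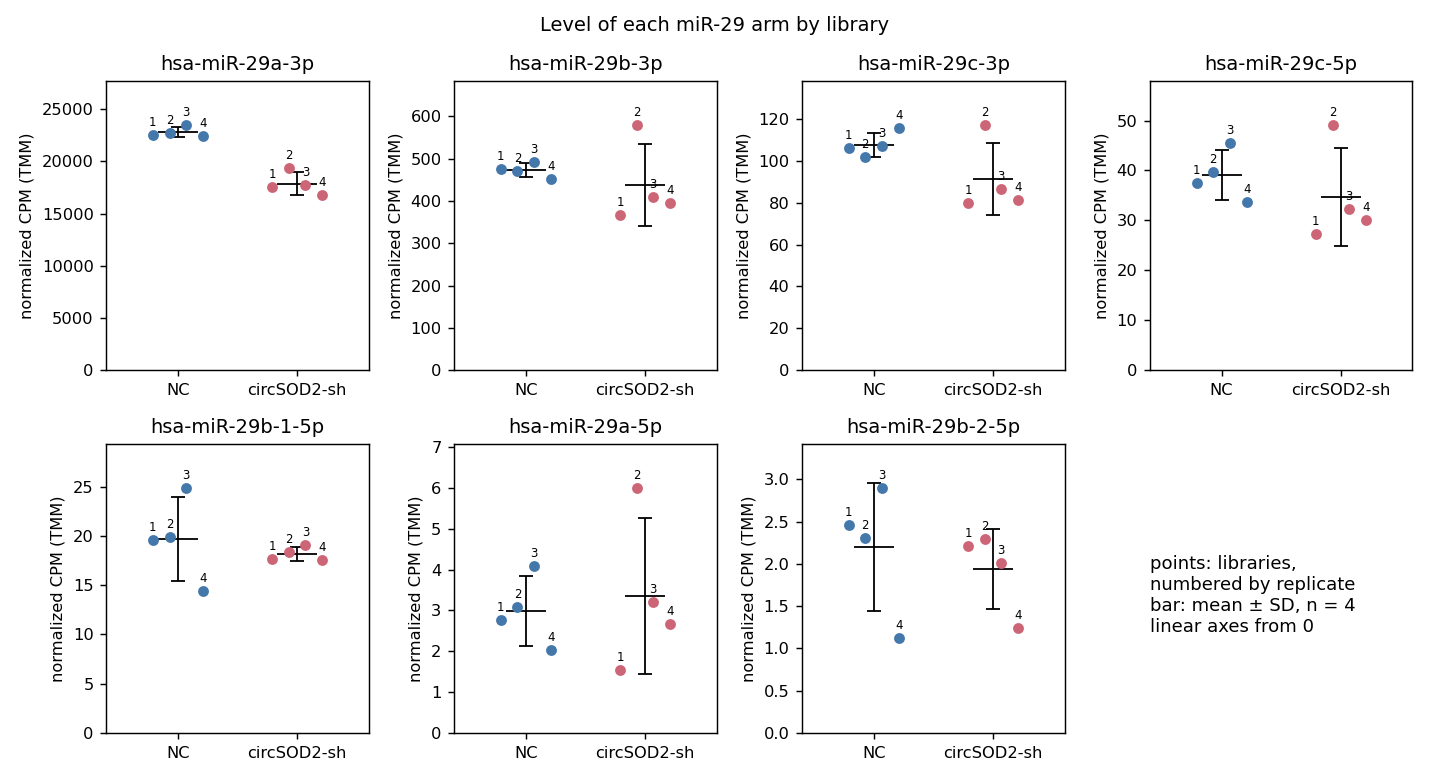
Level of each miR-29 arm in normalized CPM (linear axes from 0) in the 4 NC and the 4 circSOD2-sh libraries, numbered by replicate, with mean ± SD. On this scale the groups of miR-29a-3p are apart (they lie in the opposite order on library totals), and circSOD2-sh replicate 2 is the highest library of its group for miR-29a-3p, miR-29b-3p, miR-29c-3p, miR-29c-5p, miR-29a-5p and miR-29b-2-5p.

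miR-29b-3p, the guide made from both clusters, was at 475, 470, 493 and 452 normalized CPM in NC and at 367, 579, 408 and 396 in circSOD2-sh. The groups overlapped through circSOD2-sh replicate 2 alone, the highest of the 8 libraries. The means were 473 ± 16.7 and 438 ± 95.9 (SD, n = 4 each), and the log2 fold change was -0.11 with a 95% interval of -0.42 to 0.20 (edgeR adjusted p = 0.496).

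miR-29c-3p, the guide 1 base away from miR-29a-3p, was at 106, 102, 107 and 116 normalized CPM in NC and at 80.1, 117, 86.7 and 81.5 in circSOD2-sh. Again circSOD2-sh replicate 2 was the highest library and the 3 others of its group lay below every NC library. The means were 108 ± 5.81 and 91.3 ± 17.4 (SD, n = 4 each), and the log2 fold change was -0.24 with a 95% interval of -0.54 to 0.069 (edgeR adjusted p = 0.152). DESeq2 called it, at -0.29 and an adjusted p of 0.0364, among 295 of 895 miRNAs called lower.

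Among the passenger arms, miR-29c-5p was the most abundant, at 37.4, 39.7, 45.5 and 33.7 normalized CPM in NC and 27.2, 49.1, 32.3 and 30.1 in circSOD2-sh. Its order repeated that of the guides miR-29b-3p and miR-29c-3p in circSOD2-sh, with replicate 2 the highest and replicate 1 the lowest. The log2 fold change was -0.17 (95% interval -0.62 to 0.27, edgeR adjusted p = 0.453). miR-29b-1-5p, which reports the chromosome 7 copy of miR-29b, was at 19.6, 19.9, 24.9 and 14.4 normalized CPM in NC and at 17.7, 18.4, 19.1 and 17.6 in circSOD2-sh. Here circSOD2-sh replicate 2 lay within the range of its group, and the log2 fold change was -0.12 (95% interval -0.50 to 0.27, edgeR adjusted p = 0.559). It was between -0.30 and -0.036 with 1 library left out, nearest to 0 without NC replicate 3.

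The other two passenger arms were close to the limit of detection. miR-29a-5p had 18, 20, 24 and 9 counts in NC and 9, 34, 16 and 15 in circSOD2-sh, and miR-29b-2-5p, which reports the chromosome 1 copy of miR-29b, had 16, 15, 17 and 5 in NC and 13, 13, 10 and 7 in circSOD2-sh. Their log2 fold changes were 0.15 (95% interval -0.73 to 1.02, edgeR adjusted p = 0.748) and -0.21 (95% interval -0.90 to 0.48, edgeR adjusted p = 0.564). That of miR-29b-2-5p was between -0.44 (without NC replicate 4) and -0.11 (without NC replicate 3) with 1 library left out. With so few counts the intervals were wide, and differences inside them are compatible with these data for either arm.

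circSOD2-sh replicate 2 widened the spread of its group, and 3 further members were called lower without it. Dixon's gap test for an outlier among 4 libraries was run on 48 sets of member levels, guide shares and ratios. It flagged 0 of them, with 2.4 expected by chance. Relative to the mean of the 3 other circSOD2-sh libraries, replicate 2 was 2.43-fold higher for miR-29a-5p, 1.64-fold for miR-29c-5p, 1.48-fold for miR-29b-3p, 1.41-fold for miR-29c-3p, 1.12-fold for miR-29a-3p and 1.01-fold for miR-29b-1-5p. A rise there was common among miRNAs, since 172 of 453 known ones (38.0%) exceeded the median of the other libraries by over 1.2-fold, against 11.7% to 21.0% in the 7 other libraries. Without it, edgeR called 4 members lower, namely miR-29a-3p (log2 fold change -0.50, adjusted p = 3.89e-05), miR-29c-3p (-0.48, adjusted p = 0.00135), miR-29b-3p (-0.38, adjusted p = 0.00154) and miR-29c-5p (-0.50, adjusted p = 0.0120), while 358 of 969 miRNAs were called lower and 303 higher. The median of all miRNAs tested was then -0.15, and relative to it miR-29a-3p was at -0.36, against -0.35 with all libraries. The shift of miR-29a-3p was not particular to this library. Its log2 fold change was -0.50 without circSOD2-sh replicate 3 and -0.47 without circSOD2-sh replicate 1. Relative to the median of all miRNAs tested in the same fits it was at -0.4 and -0.37. Without circSOD2-sh replicate 2 and NC replicate 4, the same 4 members were called lower, at -0.51, -0.45, -0.40 and -0.56. Then 350 of 945 miRNAs were called lower and 309 higher. In NC replicate 4 itself the 4 passenger arms were at their lowest NC level and miR-29c-3p at its highest.

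**Figure D2:**
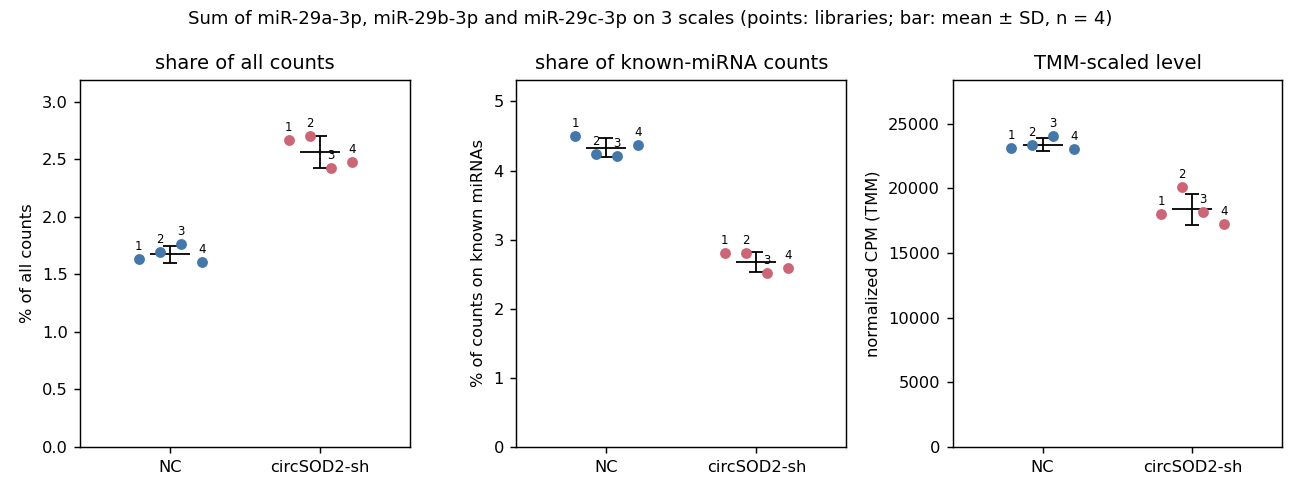
Sum of miR-29a-3p, miR-29b-3p and miR-29c-3p in each library, as a percentage of all counts, as a percentage of the counts on known miRNAs and in normalized CPM, with mean ± SD of the 4 libraries of each group. The groups are apart on all 3 scales, and circSOD2-sh is the higher group on the first and the lower group on the others.

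Summed over the 3 guides, which share a seed, the family showed how far its direction rests on the denominator. The sum was 1.67% ± 0.0706 of all counts in NC and 2.57% ± 0.139 in circSOD2-sh (SD, n = 4 each), with the circSOD2-sh libraries all higher. Of the counts on known miRNAs alone it was 4.33% ± 0.134 in NC and 2.68% ± 0.149 in circSOD2-sh, with the circSOD2-sh libraries all lower. In normalized CPM it was 23385 ± 473 and 18378 ± 1211, a log2 ratio of -0.35. Predicted miRNAs count in the first denominator and not in the second. No p is given for the sum, since its members were chosen with results known.

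**Figure D3:**
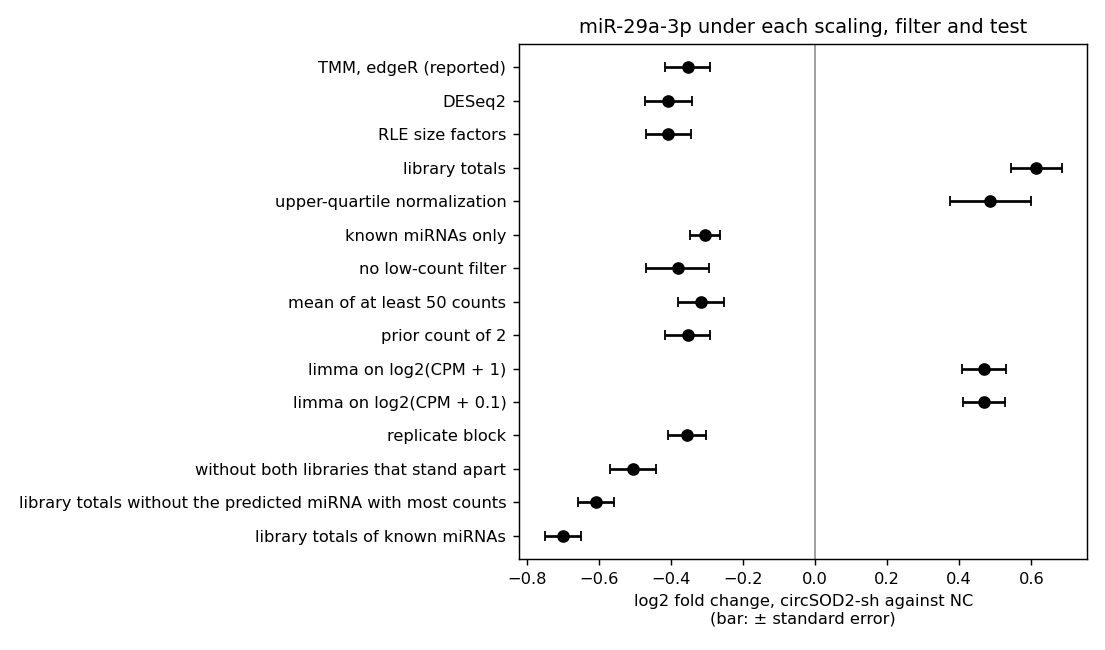
Log2 fold change of miR-29a-3p (circSOD2-sh against NC, bars ± standard error) under each scaling, filter and test. The 4 settings scaled by all counts or by an upper quartile, limma on CPM included, give 0.47 to 0.61, and the others give -0.70 to -0.31.

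miR-29a-3p stayed below the median of the miRNAs tested in all 30 fits, by 0.12 to 0.47 on the log2 scale. With library totals all 7 members were called higher, together with 613 miRNAs in all, and 6 of them lay below the median of 0.96, with miR-29a-5p the exception. The level of miR-29a-3p relative to the other miRNAs was thus lower in each of these fits, whereas its level per sequenced read was higher in circSOD2-sh.

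The isoform balance, which needs no scale between libraries, passed no test. miR-29a-3p held 97.5% of the guide counts in each NC library and 97.5%, 96.5%, 97.3% and 97.2% in circSOD2-sh. miR-29b-3p held 2.05%, 2.02%, 2.05% and 1.97% in NC and 2.04%, 2.88%, 2.24% and 2.30% in circSOD2-sh. The exact binomial 95% intervals of these shares reached at most 2.13% in NC, and in circSOD2-sh they were 1.96% to 2.13%, 2.79% to 2.98%, 2.15% to 2.34% and 2.20% to 2.39%, so that circSOD2-sh replicates 2, 3 and 4 lay above the NC libraries by more than counting error while replicate 1 did not. These intervals cover counting error only. miR-29c-3p held 0.436% to 0.502% in NC and 0.445% to 0.583% in circSOD2-sh.

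Expressed as a ratio, 47.5 to 49.6 reads of miR-29a-3p were counted per read of miR-29b-3p in the NC group, compared with 33.5 to 47.8 in circSOD2-sh. The log2 of this ratio differed by -0.22 (SE 0.11, 95% interval -0.47 to 0.030, limma adjusted p = 0.131), and by -0.12 without circSOD2-sh replicate 2 (limma adjusted p = 0.104). For miR-29a-3p against miR-29c-3p it differed by -0.10 (SE 0.096, 95% interval -0.33 to 0.12, limma adjusted p = 0.419), and for miR-29b-3p against miR-29c-3p by 0.12 (SE 0.065, 95% interval -0.036 to 0.27, limma adjusted p = 0.184). The former was -0.021 without circSOD2-sh replicate 2, and the latter 0.062 without NC replicate 4. The ratio of miR-29b-3p to miR-29c-3p, 3.92 to 4.63 in NC and 4.58 to 4.95 in circSOD2-sh, had the smallest standard error of the guide pairs.

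**Figure D4:**
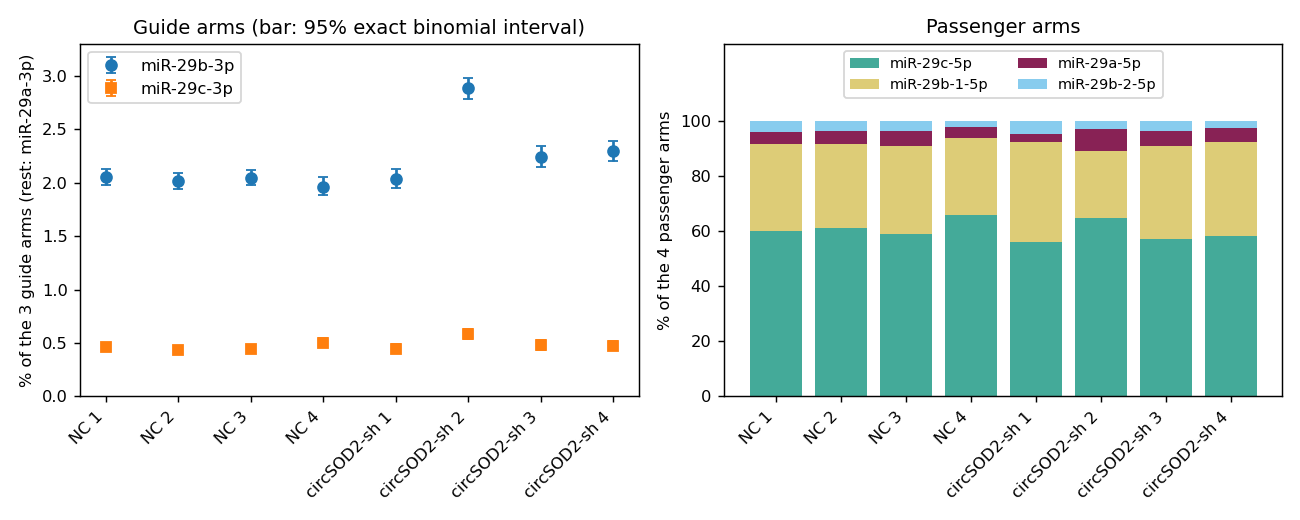
Shares of the miR-29 arms by library. The left axis gives miR-29b-3p and miR-29c-3p as a percentage of the counts on the 3 guides, with exact binomial 95% intervals, and circSOD2-sh replicate 2 is highest for both. The right axis gives each passenger arm as a percentage of the 4 passenger arms, led by miR-29c-5p in every library.

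The passenger arms had another order than the guides. miR-29c-5p made up 58.8% to 65.8% (NC) and 55.9% to 64.8% (circSOD2-sh) of the passenger counts, and miR-29b-1-5p 28.1% to 32.2% and 24.2% to 36.4%. miR-29a-5p, the partner of the dominant guide, held 3.95% to 5.29% and 3.15% to 7.93%, and miR-29b-2-5p 2.19% to 3.94% and 2.41% to 4.55%. The sum of the passengers was 64.0 ± 10.7 normalized CPM in NC and 58.1 ± 12.2 in circSOD2-sh (SD, n = 4 each), which overlapped, with 311 to 449 guide reads per passenger read in the NC libraries and 265 to 370 in circSOD2-sh.

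The 2 copies of miR-29b, which yield the same guide, can be compared through their 5p arms. miR-29b-1-5p outnumbered miR-29b-2-5p by 8 to 12.8 in NC and by 8 to 14.1 in circSOD2-sh. The log2 of this ratio differed between the groups by 0.029 (SE 0.16, 95% interval -0.36 to 0.42, limma adjusted p = 0.900). A ratio of passenger arms reflects the stability and ligation of the 2 strands besides the output of each locus. For the 5 other pairs of passenger arms the log2 ratio differed by 0.084 to 0.25, with limma adjusted p of 0.324 to 0.799.

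In all, 0 of the 9 isoform ratios of the family passed the limma test at an adjusted p of 0.05, whereas 48.3% of the 232 ratios between known miRNAs of the same number and arm did. The 9 are not independent results, since they share arms, and several include miR-29a-5p or miR-29b-2-5p, which had few counts. The median absolute change was 0.12 for the family and 0.48 for all. The within-group spread was alike, with a median residual SD of 0.27 for the family and 0.26 for all. At an unadjusted p under 0.05, limma called 0 of the 9. At an adjusted p of 0.05 the count was 1 of 9 without circSOD2-sh replicate 1 (miR-29a-5p to miR-29c-5p, 0.43, limma adjusted p = 0.0387), where 99 of all 234 ratios were called. It was also 1 of 9 without circSOD2-sh replicate 2 (miR-29b-1-5p to miR-29c-5p, 0.29, limma adjusted p = 0.0443), where 120 of 233 were called.

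The 4 arm ratios did not pass either. As a percentage of its 3p partner, miR-29a-5p was 0.00872% to 0.0310%, the lowest of the family, miR-29b-2-5p 0.248% to 0.602%, miR-29b-1-5p 3.17% to 5.05% and miR-29c-5p 29.2% to 42.6% over the 8 libraries. miR-29c was thus the hairpin whose passenger was nearest to its guide in number. For miR-29c the 5p count was 36.5% ± 5.74 of the 3p count in NC and 37.5% ± 3.29 in circSOD2-sh (SD, n = 4 each). For both copies of miR-29b the denominator is the guide of both loci together, so that each ratio is a lower bound for its own hairpin.

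Between the groups the log2 of the 5p to 3p ratio differed by 0.050 for miR-29c (SE 0.15, 95% interval -0.28 to 0.38, limma adjusted p = 0.791), by 0.046 for miR-29b-1 (SE 0.19, 95% interval -0.38 to 0.47, limma adjusted p = 0.842) and by 0.017 for miR-29b-2 (SE 0.24, 95% interval -0.53 to 0.56, limma adjusted p = 0.960). For miR-29a it differed by 0.40 (SE 0.31, 95% interval -0.29 to 1.1, limma adjusted p = 0.285), on 9 to 34 counts of the 5p arm. This difference was 0.68 without circSOD2-sh replicate 1 (limma adjusted p = 0.0536), 0.17 without circSOD2-sh replicate 2 (limma adjusted p = 0.592) and 0.027 without NC replicate 4 and circSOD2-sh replicate 2 together. At an adjusted p of 0.05 limma called 0 of these 4 ratios, against 61.2% of the 139 hairpins with both arms tested, and at an unadjusted p under 0.05 it called 0 of the 4. The median absolute change was 0.048 in the family and 0.68 over all hairpins. The within-group spread was somewhat wider in the family, with a median residual SD of 0.33 against 0.27 for all. The ratios of miR-29b-1 and miR-29b-2 share miR-29b-3p and are not independent results.

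**Figure D5:**
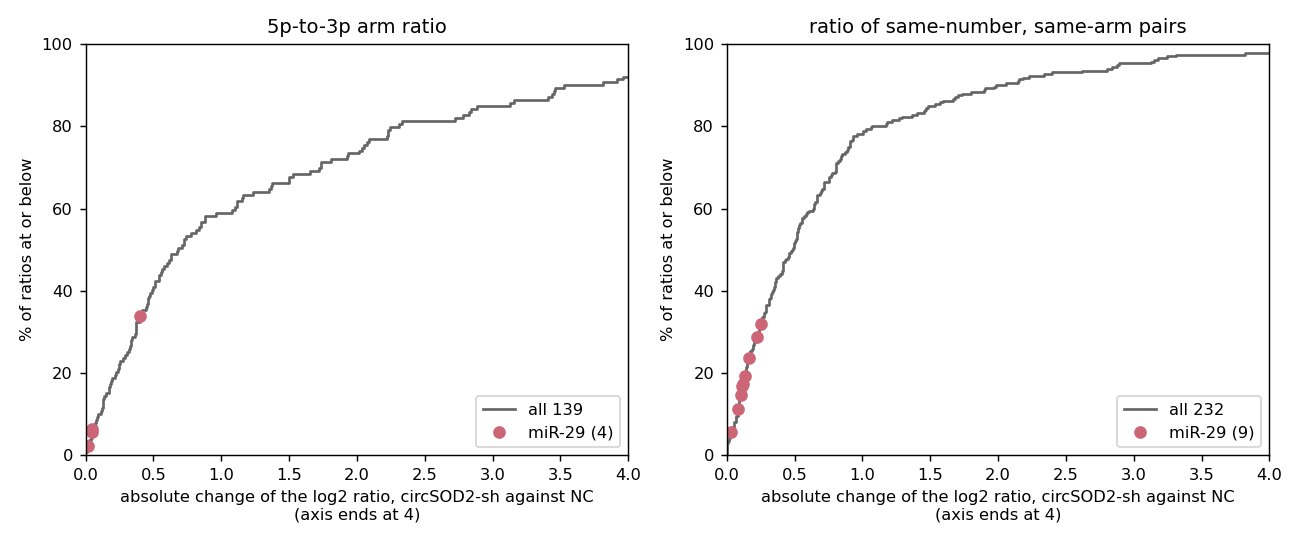
Absolute change of the log2 ratio between circSOD2-sh and NC, for the 5p-to-3p ratio of 139 hairpins (left) and for 232 ratios between known miRNAs of the same number and arm (right), each as the percentage of ratios at or below that change. The miR-29 ratios (points) reach 0.40 on the left and 0.25 on the right.

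Among the other known miRNAs, those whose pattern over the 8 libraries was most like that of miR-29a-3p, by the root-mean-square difference of centred log2 levels, were miR-125b-2-3p (0.058), miR-2682-5p (0.060), miR-340-5p (0.068), miR-10a-3p (0.073) and miR-146a-5p (0.074). In normalized CPM their log2 fold changes were -0.36, -0.36, -0.28, -0.45 and -0.31. miR-146a-5p, an inhibitor of NF-kB signalling, was the abundant one of these, at 61442 normalized CPM in NC and 49463 in circSOD2-sh.

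Other miRNAs with roles near those of miR-29 moved in both directions. Of 19 miRNAs listed for fibrosis and matrix, 17 were tested by edgeR, 5 were called higher and 6 lower, with a median log2 fold change of -0.12. The largest changes among the called ones were in miR-30c-5p (3.34) and miR-30b-5p (1.71), which repress the matrix factor CTGF, and in miR-141-3p (-2.35) of the miR-200 family, which holds back epithelial-mesenchymal transition. The level of miR-141-3p was low and uneven, at 11.9 ± 9.09 normalized CPM in NC and 2.29 ± 1.03 in circSOD2-sh (SD, n = 4 each). miR-21-5p, the fibrosis miRNA of highest level here, did not pass the test (log2 fold change -0.030, SE 0.11, adjusted p = 0.802). Of 10 miRNAs listed for chromatin and DNA methylation, all tested, 2 were called higher and 3 lower, with a median of -0.32. The largest changes among the called ones there were in miR-34a-5p (-2.38), a target of p53, miR-140-5p (0.71) and miR-26b-5p (-0.65), which represses EZH2. These counts stand against 32.4% lower and 33.3% higher over all miRNAs tested.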

How the data were processed

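Per the labels, small RNA of 4 NC and 4 circSOD2-sh samples was ligated, reverse transcribed and sequenced on an Illumina platform. The submitters' processing notes name FastQC 0.11.2, Trimmomatic 0.36, Bowtie 1.1.1 and GRCh38; the counting tool and the miRNA annotation were not given in the sources used here. The authors deposited raw counts per mature miRNA and CPM, for which the authors divided by more reads than the table lists. The columns of the authors' own comparison (fold changes and p-values) were not used. The depth was 6386872 to 9245044 counts per NC library and 3743860 to 4208276 per circSOD2-sh library.

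The test of levels was edgeR 4.0.16 in R 4.3.3 (filterByExpr with a minimum count of 10, TMM with its default reference circSOD2-sh replicate 4, quasi-likelihood test, prior count 0.125, Benjamini-Hochberg over 895 miRNAs, called at an adjusted p under 0.05). Log2 ratios of arms and isoforms were tested with limma 3.58.1 after adding 0.5 normalized CPM. The alternatives included DESeq2 1.42.0, other scalings and filters, limma on log2 of CPM plus 1 or 0.1, the replicate block and each library left out. The code of the fits was run on simulated data in which 200 miRNAs were changed. How the fits handle the different share of predicted miRNAs in NC and circSOD2-sh was not tested. Figures were made with matplotlib 3.10.9.

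The members and lists were chosen with earlier results of these data known. Named are the 7 members and the 5 known miRNAs nearest in pattern to miR-29a-3p. Up to 3 called members of each comparison list with the largest change are also named. The miRNAs miR-21-5p, miR-210-3p, miR-155-5p and miR-124-3p and those of the epithelial list are named as markers.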

Additional observations from a re-analysis of the deposited data

How the results depend on the processing

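The scale decided the sign of the members. With library totals, upper-quartile normalization, limma on log2(CPM + 1) and limma on log2(CPM + 0.1), in this order, the log2 fold changes were 0.61, 0.49, 0.47 and 0.47 for miR-29a-3p, 0.85, 0.72, 0.69 and 0.69 for miR-29b-3p, 0.73, 0.60, 0.57 and 0.57 for miR-29c-3p, 0.78, 0.64, 0.60 and 0.62 for miR-29c-5p, 0.84, 0.71, 0.69 and 0.73 for miR-29b-1-5p and 0.75, 0.61, 0.42 and 0.65 for miR-29b-2-5p. These settings called 7, 6, 5 and 5 members higher and 0 lower, with 613, 570, 561 and 558 miRNAs higher and 158, 160, 163 and 163 lower in all, against 298 and 290. The log2 ratio of the summed guides was 0.62 with library totals. Library totals without the predicted miRNA with most counts, and library totals of known miRNAs, both added after the data were seen, gave 3 and 5 members lower, with 394 of 920 and 235 of 463 miRNAs lower in all, -0.60 and -0.69 for the summed guides, and -0.11 and -0.20 for miR-29a-5p. The second called 93 miRNAs higher. Known miRNAs only gave 123 higher and 123 lower, and a mean of at least 50 counts gave 149 higher of 502 miRNAs tested and 55 of 82 arm ratios called, against 85 of 139. DESeq2 and TMM with NC replicate 1, NC replicate 4 or circSOD2-sh replicate 2 as reference called 2 members lower, with 295, 325, 320 and 340 of 895 miRNAs called lower in all.

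Leaving out both libraries that stood apart gave 4 members lower, with 350 of 945 miRNAs lower in all, 1 isoform ratio of the family called among 116 of 232 (miR-29b-1-5p to miR-29c-5p, 0.22, limma adjusted p = 0.0358), -0.53 for miR-29a-5p, and arm ratios of -0.10 for miR-29b-2 and -0.10 for miR-29c. Leaving out each library in turn gave 1 to 4 members lower, 0 to 1 isoform ratios called, -0.50 to -0.38 for the summed guides, -0.50 to -0.39 for miR-29a-3p, -0.41 to 0.28 for miR-29a-5p, -0.38 to -0.14 for miR-29b-3p, -0.48 to -0.25 for miR-29c-3p, -0.50 to -0.14 for miR-29c-5p, -0.30 to -0.036 for miR-29b-1-5p, -0.44 to -0.11 for miR-29b-2-5p, arm ratios of 0.17 to 0.68 for miR-29a, -0.071 to 0.19 for miR-29b-1, -0.18 to 0.15 for miR-29b-2 and -0.052 to 0.13 for miR-29c, ratios of -0.29 to -0.12 for miR-29a-3p to miR-29b-3p, -0.15 to -0.021 for miR-29a-3p to miR-29c-3p and 0.062 to 0.14 for miR-29b-3p to miR-29c-3p, and -0.13 to 0.11 for the ratio of miR-29b-1-5p to miR-29b-2-5p. The 4 members were called without circSOD2-sh replicate 2 and the isoform ratio without circSOD2-sh replicate 1 or replicate 2. With 2 normalized CPM added the ratio of miR-29b-1-5p to miR-29b-2-5p was -0.0028, and the arm ratio of miR-29b-2 was -0.19 with library totals. The cause of these shifts was not tested.

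Whether replicate numbers pair the samples was not given in the sources used here. Deviations of same-numbered libraries correlated by -0.16 to 0.24, and 2 of 4 NC libraries correlated best with their own number. With so few libraries, some of which stood apart, these correlations cannot decide whether the samples were paired. With the replicate block miR-29a-3p was at -0.36 (edgeR adjusted p = 0.00164) and was still the 1 member called. Libraries of the same group differed by more than sampling noise (chi-square per degree of freedom 11.4 to 162). Depth limits miR-29a-5p and miR-29b-2-5p, at 5 to 34 counts a library.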
